A study of Mus musculus with 6 samples.

Results

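The SLC25 genes encode the mitochondrial carrier family, and every protein-coding gene row named Slc25a followed by a number was taken as a member. This name rule found 47 genes among 41325 gene rows, 21969 of them protein-coding. The rule used no measured value. The series held 6 bulk RNA-seq libraries labelled salivary gland, taken from female ICR mice, an outbred stock, aged 10 weeks and habituated for 7 days. All mice, controls included, received intraperitoneal 5-fluorouracil (5-FU), a thymidylate synthase inhibitor used in chemotherapy, at 20 mg/kg per day, 2 times per week for 3 weeks. In the elemental diet group (n = 3 libraries) Elental, a liquid formula with amino acids in place of protein, was given by mouth at 1.6 kcal in 0.8 mL per day, 2 times per day on 5 days a week, and the control group (n = 3 libraries) was given the same volume of saline. No library came from mice without 5-FU, and the protocol text names fibroblasts or keratinocytes as the RNA source where the tissue label names salivary gland.

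Mitochondrial carriers are small proteins of the inner mitochondrial membrane that exchange or import nucleotides, phosphate, metal ions, amino acids, carboxylates and cofactors. They are encoded in the nucleus, made in the cytosol and inserted by a dedicated import route. Some are used in nearly all cells, such as the exchangers that export ATP. Others are tied to one task, such as the iron and glycine carriers that feed heme synthesis in developing red cells.

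The tissue label was checked against defining markers. Of 13 salivary acinar and duct markers 5 had no read in any library, and together they came to 7.23 to 10.3 CPM (counts per 1e6 reads, scaled with edgeR's TMM factors) in elemental diet libraries and 17.8 to 19.4 CPM with saline. Blood and lymphoid transcripts were far more abundant. The counts of higher and lower markers below stand beside 38.0% of all tested genes higher and 40.2% lower (test described below). The lists were chosen with earlier results of these data known. The 9 erythroid markers summed to 37674 to 38464 CPM in elemental diet libraries and 2223 to 3456 CPM with saline, and 9 of 9 were higher. The 8 proliferation markers summed to 4238 to 4974 and 140 to 145 CPM, 8 of 8 higher, and the 7 neutrophil precursor markers to 205 to 239 and 5.45 to 6.47 CPM, 7 of 7 higher. The 8 B cell markers summed to 785 to 837 and 5743 to 5938 CPM and the 7 T cell markers to 60.2 to 66.8 and 397 to 484 CPM, all of them lower, and the 6 macrophage markers, all lower (5 with the replicate number as a block, where Adgre1 was not called at an adjusted p of 0.14), to 506 to 620 and 1164 to 1409 CPM. Fibroblast and keratinocyte markers stood at 276 to 488 and 297 to 336 CPM, and of 5 tested 1 was higher, 2 lower and 2 not called. Among them the keratins Krt10 and Krt1 had means of 1.34 and 0.0714 CPM with the diet and 2.42 and 0.0991 CPM with saline. Skeletal muscle markers stood at 13.9 to 14.2 and 8.71 to 9.85 CPM. Of 3 tested Mylpf was higher (means 12.9 and 5.68 CPM), and Ckm and Tnnt3 were lower. The 5 adipocyte markers had 1737 reads in elemental diet library 1 and 2037 in saline library 1, against 10 to 18 in each of the other 4. In bulk RNA, fewer cells of a type and less RNA per cell cannot be told apart, and the part of these cell types in the results below was not tested. Reads assigned to genes ranged from 29053287 to 33073125 per library, so 3 reads, the limit that a count of 0 allows, equalled 0.0907 to 0.103 CPM.

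Promoter sequence is shown for 4 members whose transcripts moved far apart in the comparison: the glycine carrier Slc25a38 and the aspartate/glutamate carrier Slc25a13, which rose most among members with a single window, Slc25a12, the paralog of Slc25a13 that rose less, and the iron carrier Slc25a28, which fell while its paralog Slc25a37 rose. RefSeq promoter windows of GRCm38.p6, 250 bases before to 50 after an annotated start, were present for 36 of the 47 members (46 windows). The windows are chr9:120110132-120110431 on the plus strand (Slc25a38) and, on the minus strand, chr6:6217124-6217423 (Slc25a13), chr2:71367706-71368005 (Slc25a12) and chr19:43674832-43675131 (Slc25a28). Each is written 5′ to 3′ along the gene, and capitals mark, on either strand, the motif CACCC, the motif CCAAT, the E-box CACGTG, and 4 GATA forms, which are AGATAA with its variant TGATAA, and AGATAG with its variant TGATAG; no 2 motifs overlap in these windows.
Slc25a38: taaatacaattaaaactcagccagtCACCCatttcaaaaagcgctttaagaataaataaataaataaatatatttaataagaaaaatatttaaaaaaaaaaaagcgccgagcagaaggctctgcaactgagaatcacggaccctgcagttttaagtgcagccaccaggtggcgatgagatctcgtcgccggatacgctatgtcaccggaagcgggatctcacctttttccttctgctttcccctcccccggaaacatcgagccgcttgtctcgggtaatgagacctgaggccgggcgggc
Slc25a13: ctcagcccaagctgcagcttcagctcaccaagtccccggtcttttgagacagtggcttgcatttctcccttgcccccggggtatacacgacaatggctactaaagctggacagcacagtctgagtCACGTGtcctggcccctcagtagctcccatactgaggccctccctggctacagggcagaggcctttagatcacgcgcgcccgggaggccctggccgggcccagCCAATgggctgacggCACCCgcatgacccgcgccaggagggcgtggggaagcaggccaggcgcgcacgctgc
Slc25a12: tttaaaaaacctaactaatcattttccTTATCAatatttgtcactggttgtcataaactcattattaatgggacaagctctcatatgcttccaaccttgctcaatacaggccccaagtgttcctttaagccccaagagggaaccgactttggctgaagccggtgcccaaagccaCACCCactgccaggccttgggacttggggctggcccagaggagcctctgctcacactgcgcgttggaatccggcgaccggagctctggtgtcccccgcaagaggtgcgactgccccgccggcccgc
Slc25a28: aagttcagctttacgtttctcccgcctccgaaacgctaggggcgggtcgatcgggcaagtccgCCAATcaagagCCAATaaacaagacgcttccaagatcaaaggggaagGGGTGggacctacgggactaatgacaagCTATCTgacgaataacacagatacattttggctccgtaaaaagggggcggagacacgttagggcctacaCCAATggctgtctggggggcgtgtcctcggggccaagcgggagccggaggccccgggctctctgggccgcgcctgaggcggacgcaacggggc

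In these windows CACCC was present in all 4, CCAAT in Slc25a13 (1 match) and Slc25a28 (3 matches), CACGTG in Slc25a13 (1 match), and a GATA form in Slc25a12 and Slc25a28 (1 match each). Among all 32851 RefSeq windows of this length 57.5% held CACCC, 37.4% CCAAT, 29.8% a GATA form and 7.15% CACGTG. Of the 46 member windows 29 held CACCC, 22 CCAAT, 10 a GATA form and 8 CACGTG. These matches describe letters in a window and are not binding sites. Of the 4 genes shown, Slc25a38 and Slc25a13 rose most and lacked a GATA form, which says only that these letters are not in these windows. Slc25a21, which rose more and has more than 1 window, held a GATA form in 1 window and none in another. Slc25a37 and Slc25a51, which also rose, had no window.

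Elemental diet (below also the diet) was then compared with saline for total gene reads, which count exon and intron reads together, to ask how carrier transcripts differed under 5-FU with and without the diet. The largest rises were in carriers for 2-oxoadipate (Slc25a21, 13.4-fold), glycine (Slc25a38, 6.86-fold), NAD (Slc25a51, 6.59-fold), iron (Slc25a37, 6.58-fold) and aspartate/glutamate (Slc25a13, 5.88-fold). The largest falls were in Slc25a53, a carrier whose substrate is not listed as settled here (3.83-fold), and in the uncoupling protein relative Slc25a27 (3.50-fold). Of 47 members 41 had enough reads for edgeR's quasi-likelihood test. At a Benjamini-Hochberg adjusted p under 0.05 over 18303 genes, 21 were higher, 11 lower and 9 not called.

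That makes 78.0% of the tested members called, where 78.1% of all tested genes were called. By direction, 51.2% of the members were higher against a background of 38.0%, and 26.8% were lower against 40.2%. The median log2 fold change was 0.17 over the tested members and -0.08 over all tested genes. Changes above 2-fold were called upward in 13 of the 41 tested members, against 19.1% of all tested genes. Downward they were called in 3 of the 41, against 23.7% of all tested genes. The 3 elemental diet libraries did not overlap the 3 saline libraries in 33 of the 41 members, or 80.5%, against 81.0% of all tested genes. The split depended on the scaling: with library totals alone it was 18 higher and 17 lower, and with upper quartile scaling 18 and 16, where the median of all genes was -0.39 and -0.35. Of the 6 members that turned direction with the scaling, 1, Slc25a46, was called with TMM scaling. With library totals Slc25a4, Slc25a20, Slc25a30 and Slc25a46 were called lower (edgeR adjusted p = 0.00071, 0.014, 0.0049 and 0.024). The labels give 3 mice per group for the 3 libraries but do not tie a library to a mouse, so p-values are read against the spread among libraries. Between libraries of a group the median chi-square per gene was 2.96 to 5.97 times that of sampling noise. It was computed on library totals without TMM factors and is not the dispersion used in the test.

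**Figure D1:**
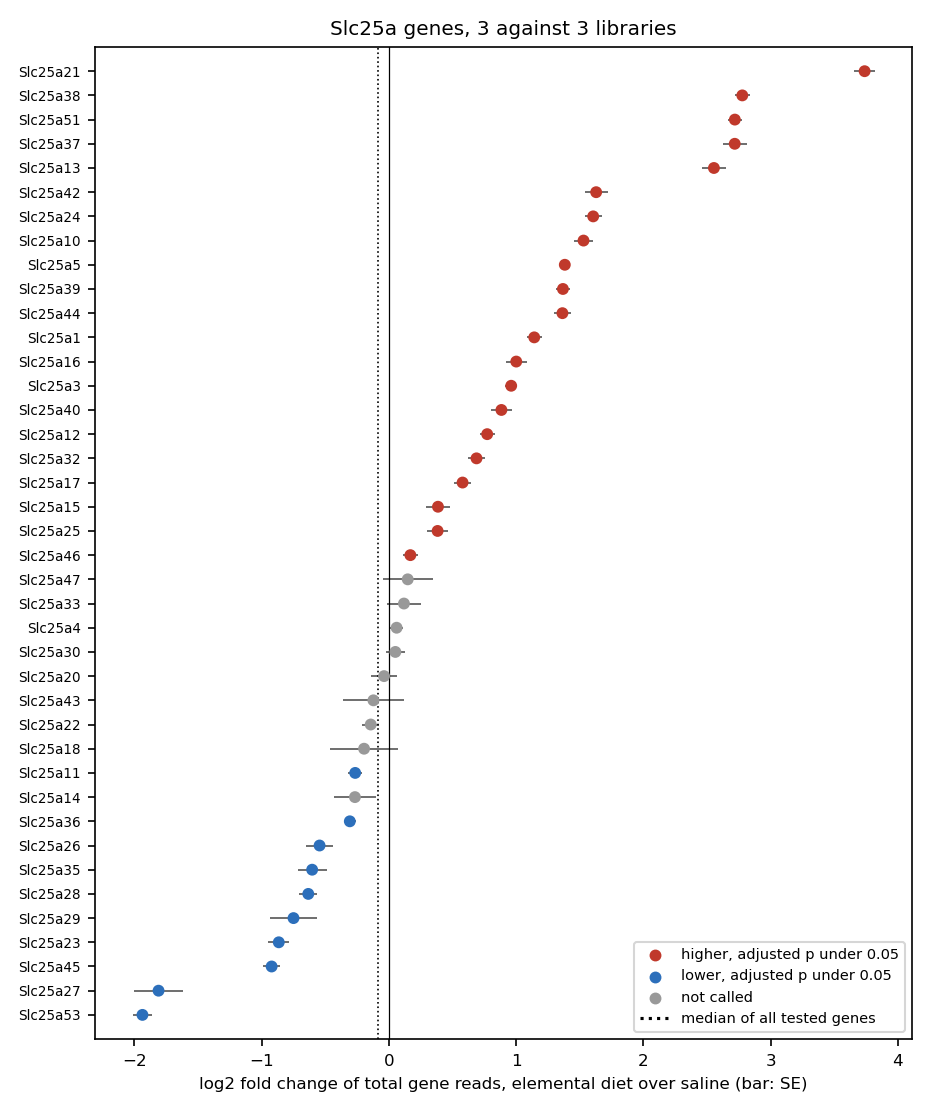
Log2 fold change of total gene reads, elemental diet over saline (x axis), for 40 of the 41 tested members, one per row, with bars for the standard error (SE). Red points are the 21 higher, blue 10 of the 11 lower and grey the 9 not called. The dotted line at -0.08 is the median of all tested genes, and the points run from -1.94 (Slc25a53) to 3.74 (Slc25a21).

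The iron, glycine and glutathione carriers, the first 2 of which feed heme synthesis, changed by unequal amounts. Slc25a37 (mitoferrin 1, chromosome 14, 69241848 to 69285112), the iron importer of developing red cells, stood at 1255, 1301 and 1517 CPM in the elemental diet libraries and at 230, 199 and 190 CPM with saline. The groups were far apart, with a log2 fold change of 2.72 (SE 0.09, edgeR adjusted p = 3.9e-09). Its paralog Slc25a28 (mitoferrin 2, chromosome 19, 43663822 to 43674881), which imports iron in most other cells, went the other way, at 34.0, 30.6 and 29.5 CPM against 52.2, 48.0 and 45.6 CPM (log2 fold change -0.63 with SE 0.07, adjusted p = 2.1e-06). Within each library there were 36.9, 42.5 and 51.4 Slc25a37 reads per Slc25a28 read with the diet and 4.40, 4.15 and 4.16 with saline, a 10.2-fold difference in the ratio of reads. Slc25a38 (chromosome 9, 120110374 to 120124504), which imports the glycine for the first step of heme synthesis, stood at 175, 180 and 195 CPM against 26.3, 27.3 and 26.6 CPM. All 3 elemental diet libraries lay far above the saline libraries (log2 fold change 2.78 with SE 0.06, adjusted p = 4.1e-14). The glutathione carriers rose less. Slc25a39, the more abundant one, stood at 134, 142 and 141 CPM against 57.6, 53.6 and 50.5 CPM (log2 fold change 1.37, adjusted p = 3.4e-11), and its paralog Slc25a40 rose by 0.89 (adjusted p = 3.5e-07).

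The energy carriers include Slc25a5, the member with the highest mean TPM in both groups. Slc25a5 (ANT2, chromosome X, 36795651 to 36798807), the ADP/ATP exchanger of dividing cells, stood at 653, 649 and 660 CPM with the diet and 244, 254 and 254 CPM with saline (log2 fold change 1.38 with SE 0.04, adjusted p = 2e-12). Slc25a4 (ANT1), the exchanger of heart and skeletal muscle, was not called: 129, 137 and 121 CPM against 125, 123 and 123 CPM, groups that overlap (log2 fold change 0.06 with SE 0.05, adjusted p = 0.30). With library totals its log2 fold change was -0.25 (adjusted p = 0.00071), and on reads across exon junctions -0.20 (adjusted p = 0.021), while without elemental diet library 3 it was called higher (0.12, adjusted p = 0.046). The ratio of Slc25a5 to Slc25a4 reads was 5.06, 4.73 and 5.44 with the diet and 1.96, 2.06 and 2.05 with saline. Slc25a31 (ANT4), a germ cell exchanger, had 18 reads with the diet and 23 with saline in all and was not tested. Slc25a3, the phosphate and copper carrier that supplies ATP synthase, stood at 507, 542 and 533 CPM against 278, 267 and 267 CPM (log2 fold change 0.96 with SE 0.05, adjusted p = 1.7e-10).

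**Figure D2:**
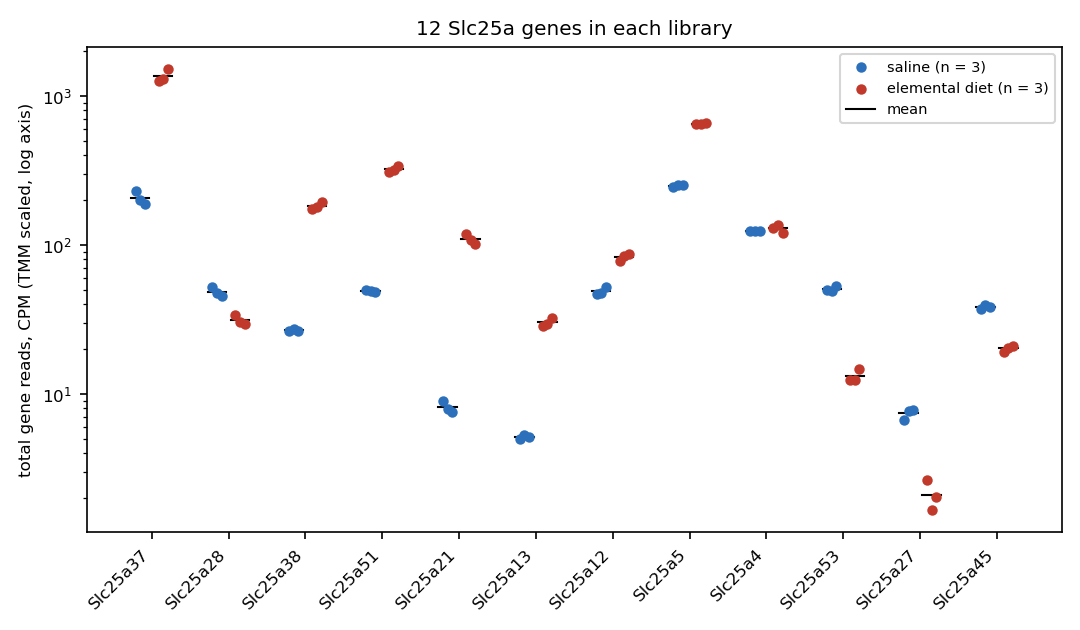
Total gene reads in CPM (TMM scaled, log axis) of 12 members in each library, saline in blue and elemental diet in red, with a black bar at each group's mean (n = 3 each). Slc25a37 reaches 1255 to 1517 CPM with the diet while its paralog Slc25a28 lies lower with the diet, and the red and blue points of Slc25a4 overlap.

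The calcium-regulated ATP-Mg/phosphate carriers, which load adenine nucleotides into the matrix, split. Slc25a24 rose, at 74.1, 79.9 and 88.2 CPM against 26.5, 26.8 and 26.3 CPM (log2 fold change 1.61 with SE 0.07, adjusted p = 3.9e-11), and Slc25a25 rose by 0.38 (adjusted p = 0.00067), a call lost with library totals (0.07, adjusted p = 0.38) and on reads across exon junctions (0.16, adjusted p = 0.39). Slc25a23 fell, from 29.4, 31.2 and 29.4 CPM with saline to 17.97, 15.2 and 16.3 CPM (log2 fold change -0.86 with SE 0.08, adjusted p = 2.7e-07). Only 40.0% of the Slc25a23 reads were unique to it, and on unique reads its log2 fold change was -1.05. Slc25a41, the fourth gene of the group, had 3 reads in each group.

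The aspartate/glutamate carriers of the malate-aspartate shuttle both rose, by unequal amounts. Slc25a13 (citrin, chromosome 6, 6041218 to 6217173) stood at 28.8, 29.7 and 32.6 CPM against 5.00, 5.32 and 5.17 CPM (log2 fold change 2.56 with SE 0.09, adjusted p = 8.7e-12). Slc25a12 (aralar, chromosome 2, 71271063 to 71367749) remained the one with more reads, at 78.7, 84.3 and 87.5 CPM against 46.7, 47.9 and 51.9 CPM (log2 fold change 0.77 with SE 0.06, adjusted p = 3.2e-08). The ratio of Slc25a13 to Slc25a12 reads was 0.366, 0.353 and 0.372 with the diet and 0.107, 0.111 and 0.0996 with saline. The glutamate carriers were not called: Slc25a22 had a log2 fold change of -0.14 (adjusted p = 0.069) and Slc25a18 of -0.19 (adjusted p = 0.51). Slc25a22 was called lower on exon reads (-0.26, adjusted p = 0.0029), on reads across exon junctions (-0.41, adjusted p = 0.0093), on unique reads (-0.18, adjusted p = 0.028), with a minimum of 1 CPM (-0.19, adjusted p = 0.021), with library totals (-0.45, adjusted p = 6.4e-05) and with upper quartile scaling (-0.41, adjusted p = 9.8e-05).

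Of the 4 di- and tricarboxylate carriers 3 rose and 1 fell, against 38.0% and 40.2% of all tested genes. Slc25a21 (chromosome 12, 56712634 to 57197472), which carries 2-oxoadipate from lysine breakdown, had the largest change of any member, at 118, 109 and 101 CPM against 8.96, 7.96 and 7.60 CPM (log2 fold change 3.74 with SE 0.08, adjusted p = 5.2e-14). It spans 484839 bases, and intron reads made up 72.1% ± 2.10 (SD, n = 3) of its reads with the diet and 64.6% ± 6.04 with saline. Counted on reads that cross exon junctions, of which there were 1308 and 132 in all, its log2 fold change was 3.25 (adjusted p = 2.1e-13). Slc25a10, the malate and phosphate exchanger, rose by 1.53 (adjusted p = 2.5e-10) and Slc25a1, which exports citrate for lipid synthesis, by 1.14 (adjusted p = 3e-10). Slc25a11, the 2-oxoglutarate carrier of the malate-aspartate shuttle, fell from 70.9, 70.1 and 72.4 CPM to 63.7, 57.6 and 56.3 CPM (log2 fold change -0.26 with SE 0.06, adjusted p = 0.00079).

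Among amino acid carriers Slc25a44, which imports branched-chain amino acids, stood at 69.8, 80.3 and 78.5 CPM against 28.9, 29.6 and 30.2 CPM (log2 fold change 1.36 with SE 0.06, adjusted p = 1.2e-10). Slc25a15, the ornithine carrier of the urea cycle, rose by 0.39 (adjusted p = 0.0026), which was lost with library totals (0.08, adjusted p = 0.48) and on reads across exon junctions (0.05, adjusted p = 0.84). Slc25a29, a carrier of basic amino acids, fell from 5.55, 4.63 and 4.34 CPM to 2.87, 2.69 and 3.09 CPM (log2 fold change -0.75 with SE 0.18, adjusted p = 0.0019). Slc25a2, another ornithine carrier, had 27 reads with the diet and 6 with saline, none of them unique.

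The cofactor carriers moved in opposite directions. Slc25a51 (chromosome 4, 45395923 to 45408766), the mitochondrial NAD importer, stood at 311, 318 and 342 CPM against 49.7, 49.1 and 48.5 CPM (log2 fold change 2.72 with SE 0.05, adjusted p = 2.5e-14). The libraries of each group lay close together, and every elemental diet library was far above every saline library. Slc25a32, which carries folate and FAD, rose by 0.69 (adjusted p = 2.9e-07). Slc25a26, the S-adenosylmethionine carrier, was lower by total reads (log2 fold change -0.54, adjusted p = 0.00029) but was not called on exon reads alone (-0.20, adjusted p = 0.17).

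Of the 4 carriers that handle coenzyme A or carnitine 3 rose and 1 was not called (38.0% of all tested genes were higher). Slc25a42, the mitochondrial coenzyme A carrier, stood at 47.4, 47.6 and 48.5 CPM against 13.4, 15.0 and 17.9 CPM (log2 fold change 1.63 with SE 0.09, adjusted p = 1.2e-09). Slc25a16, linked to coenzyme A as well, rose by 1.002 (adjusted p = 7.6e-08). Slc25a17, which serves peroxisomes rather than mitochondria, stood at 50.9, 53.9 and 59.2 CPM against 36.0, 37.2 and 36.4 CPM (log2 fold change 0.58 with SE 0.06, adjusted p = 1.6e-06). Slc25a20, the carnitine-acylcarnitine carrier of fatty acid oxidation, was not called, with 21.6, 21.4 and 16.8 CPM against 21.99, 18.8 and 20.6 CPM, groups that overlap (log2 fold change -0.04, adjusted p = 0.75; -0.34 and 0.014 with library totals).

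The pyrimidine nucleotide carrier Slc25a36 fell from 90.1, 91.1 and 90.4 CPM to 71.6, 73.0 and 75.1 CPM (log2 fold change -0.31 with SE 0.05, adjusted p = 4.4e-05; -0.22 and 0.23 on reads across exon junctions), and its paralog Slc25a33 was not called (0.12, adjusted p = 0.42). Among the uncoupling protein relatives Slc25a27 (UCP4), known from brain, fell from 6.73, 7.69 and 7.82 CPM to 2.65, 1.67 and 2.03 CPM (log2 fold change -1.81 with SE 0.19, adjusted p = 9.6e-07). It rested on few spliced reads, 14 and 36 across exon junctions, and on those alone it was not called (log2 fold change -1.39, adjusted p = 0.069). Slc25a30, the most abundant of the 3, stood at 24.4, 28.2 and 27.1 CPM against 24.5, 26.0 and 26.3 CPM and was not called (0.05, adjusted p = 0.55), nor was Slc25a14 (-0.27, adjusted p = 0.16). With library totals both were lower (-0.26, adjusted p = 0.0049, and -0.57, adjusted p = 0.0095). Slc25a46, an outer membrane protein of mitochondrial shape, stood at 52.5, 59.0 and 59.5 CPM against 51.5, 50.004 and 50.5 CPM. Its log2 fold change of 0.17 (adjusted p = 0.019) became -0.14 with library totals (adjusted p = 0.024), so its direction depends on the scaling. The call was also lost without elemental diet library 2 or without saline library 2 (adjusted p = 0.06 for each), and on unique reads (0.13, adjusted p = 0.058). On intron reads Slc25a46 was called lower (-0.51, adjusted p = 0.005), while its exon reads were called higher.

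Of the 8 members grouped here without a settled substrate 5 were tested, of which 3 fell and 2 were not called, where 40.2% of all tested genes were lower and 38.0% higher. Slc25a53 (chromosome X, 136981116 to 137038302) fell from 49.5, 48.9 and 53.1 CPM to 12.5, 12.5 and 14.6 CPM (log2 fold change -1.94 with SE 0.08, adjusted p = 2.5e-11). It overlaps Zcchc18 on the other strand over 5318 bases, and Zcchc18 had a log2 fold change of -2.75 (adjusted p = 5e-11); strand use is not given in the sources used. Slc25a45 fell from 37.1, 39.6 and 38.6 CPM to 19.3, 20.5 and 21.1 CPM (log2 fold change -0.92 with SE 0.07, adjusted p = 2e-08). Slc25a35 fell by 0.60 on the log2 scale (adjusted p = 0.00028) with 72.9% unique reads, and it overlaps Rangrf over 1882 bases, a gene that rose by 2.73. Slc25a43 and Slc25a47 were not called. The remaining 3 were not tested: Slc25a34 had 10 reads with the diet and 41 with saline, Slc25a48 5 and 5, and Slc25a54 0 and 7. In all, 22 members overlap another annotated gene and 10 a protein-coding one, so reads in those stretches may be shared.

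Read ratios within a library need no scaling between libraries, and they were compared for 10 pairs of related members. They are not corrected for gene length, so only the difference between libraries is read. In 9 of the 10 pairs the 3 ratios with the diet did not overlap those with saline; among single genes the reads did not overlap in 81.0%, and other gene pairs were not compared. Each of these had p = 0.1 by a two-sided exact permutation test, the smallest that 3 against 3 libraries can give (0.11 adjusted over the 10 pairs). On the log2 scale the difference, diet minus saline, was largest for Slc25a37 to Slc25a28 (3.35), Slc25a24 to Slc25a23 (2.47), Slc25a10 to Slc25a11 (1.80) and Slc25a13 to Slc25a12 (1.78). It was smaller for Slc25a5 to Slc25a4 (1.32), Slc25a24 to Slc25a25 (1.22), Slc25a15 to Slc25a29 (1.13), Slc25a39 to Slc25a40 (0.49) and Slc25a33 to Slc25a36 (0.44). The glutamate carrier pair Slc25a22 to Slc25a18 overlapped between groups (0.11, exact permutation p = 0.7). On exon reads its difference was 1.51, resting on 10 Slc25a18 exon reads with the diet and 32 with saline.

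Levels per length, from the authors' deposited TPM (transcript abundance scaled by length and depth), show how the family's transcripts were divided. Summed over the 47 genes, TPM was 3093, 3066 and 3188 with the diet and 1822, 1801 and 1763 with saline, a ratio of 1.74 between the means. TPM sums to 1e6 in each library and carries no TMM factor, so its changes are not on the scale of the CPM above. Slc25a4, whose CPM overlapped, had a mean TPM of 143 with the diet and 180 with saline. Slc25a5 was the most abundant carrier in both groups, with 33.4% ± 0.760 (SD, n = 3) of the summed TPM against 29.6% ± 0.791. Slc25a37 took 17.6% ± 1.25 against 6.17% ± 0.617 and moved from rank 5 to rank 2. Slc25a38 went from rank 15 to rank 4, with 5.06% ± 0.0865 against 1.41% ± 0.0217, and Slc25a51 from rank 13 to rank 6, with 4.56% ± 0.0912 against 1.66% ± 0.00602. The heme-linked pair Slc25a37 and Slc25a38 together made up 22.7% ± 1.34 against 7.57% ± 0.596. Slc25a4 moved from rank 2 to rank 5 (4.60% ± 0.373 against 10.0% ± 0.0570) and Slc25a11 from rank 4 to rank 9 (2.32% ± 0.217 against 6.39% ± 0.143). Slc25a3 kept rank 3 at 7.91% ± 0.232 against 9.34% ± 0.154.

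**Figure D3:**
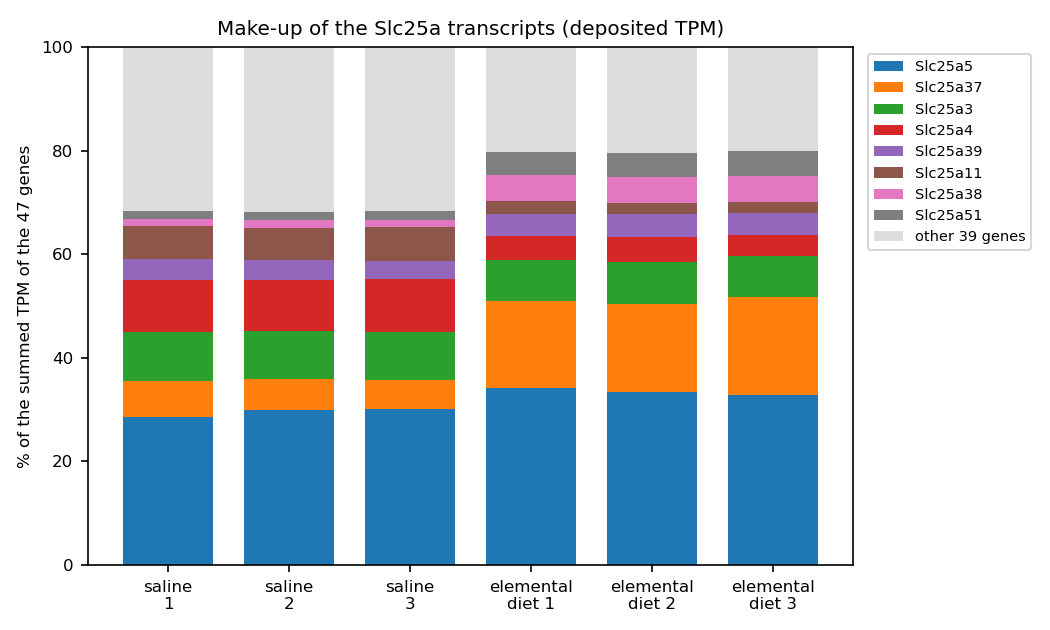
Share of the summed deposited TPM of the 47 genes (y axis, percent) taken by each of the 8 members with the highest mean TPM in each of the 6 libraries, and by the other 39 together in grey. Slc25a37 fills 17.6% on average with the diet and 6.17% with saline, and the 3 libraries of a group look alike.

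The files also split each gene's reads into exon and intron reads. In poly(A)-selected RNA, intron reads can come from transcripts not yet fully spliced, from retained introns or from other transcripts inside the gene. Other sources are possible, and the files do not separate any of these. Over all genes intron reads were 8.64% ± 0.225 of reads (SD, n = 3) with the diet but 14.0% ± 0.341 with saline. Among the 39 members with a mean of at least 10 exon and 10 intron reads, the intron share was lower with the diet in 24, higher in 3 and not called in 12 (edgeR, intron by diet interaction, adjusted over 13150 genes). That is 69.2% of the members called, against 62.0% of all genes tested. Of all genes tested 57.7% were lower and 4.27% higher, against 61.5% and 7.69% of the members, and the median log2 change of intron over exon reads was -0.56 in members and -0.63 in all genes.

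The falls with the smallest p were in carriers of different roles. In Slc25a38 intron reads were 8.82%, 10.3% and 11.6% of its reads with the diet and 25.4%, 26.6% and 25.3% with saline (log2 change of intron over exon reads -1.61, adjusted p = 8.3e-10). In Slc25a12 they were 12.5%, 9.60% and 9.03% against 25.9%, 20.8% and 22.3% (-1.37, adjusted p = 6.1e-08). In Slc25a20, whose total reads were not called, they were 6.803%, 7.01% and 8.37% against 20.6%, 21.1% and 20.3% (-1.72, adjusted p = 1.8e-07). In Slc25a46 they were 6.58%, 7.61% and 5.19% against 14.8%, 14.6% and 14.1% (-1.29, adjusted p = 2.5e-07). The groups did not overlap in any of these 4 genes, but the genes were picked for their small p. The share of all genes without overlap in this measure was not counted. Slc25a13 fell in the same measure, from 31.5% ± 6.32 to 13.7% ± 1.54 (-1.54, adjusted p = 8.5e-06), and so did Slc25a4, from 2.26% ± 0.317 to 0.833% ± 0.261 (-1.44, adjusted p = 2.5e-06).

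The 3 members with a higher intron share were Slc25a51, Slc25a21 and Slc25a39. Slc25a51 went from 5.404%, 4.46% and 4.57% with saline to 8.61%, 7.06% and 8.36% (log2 change of intron over exon reads 0.78, adjusted p = 3.6e-05). Slc25a21 had a log2 change of 0.49 (adjusted p = 0.019) and Slc25a39 of 0.55 (adjusted p = 0.039), and neither was called without saline library 2 (adjusted p = 0.16 and 0.23) or with limma on the logit share (0.096 and 0.06). Slc25a21 was also lost without elemental diet library 2 or saline library 3 (0.055 and 0.081), and Slc25a39 without elemental diet library 1 or 3 (0.074 and 0.067). Slc25a37 was not called: its share was 6.86%, 7.24% and 7.59% with the diet and 7.23%, 7.72% and 8.10% with saline (-0.09, adjusted p = 0.41). Exon and intron reads of this iron carrier were both higher, by 2.61 and 3.12 on the log2 scale, each fitted with its own scaling.

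**Figure D4:**
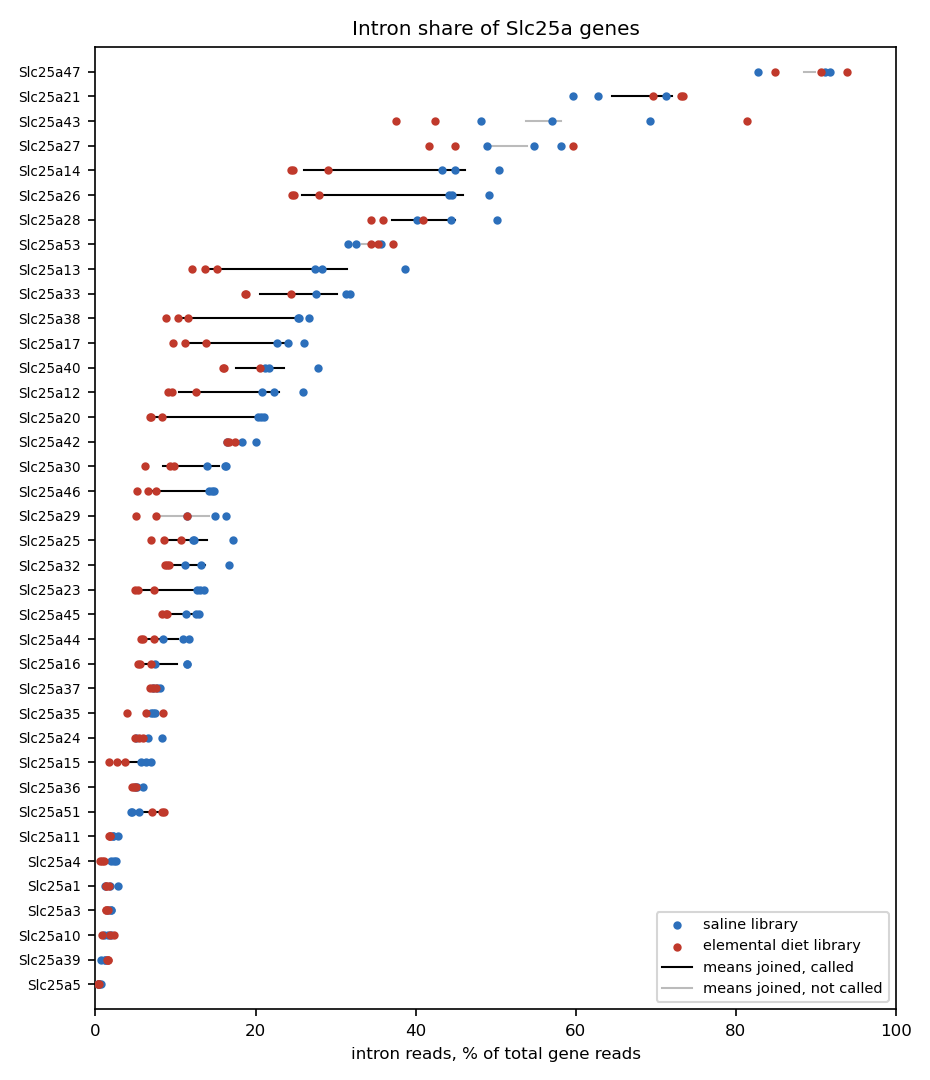
Intron reads as a percent of total gene reads (x axis) in each library for 38 of the 39 members tested, blue for saline and red for elemental diet, ordered by the saline mean. Lines join the group means, black where the change was called and grey where it was not. Slc25a38 moves from 25.8% to 10.2% while Slc25a51 moves from 4.81% to 8.01%.

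Exon and intron reads were also tested separately, each over its own genes and with its own scaling. Of the 21 members with higher exon reads, intron reads were higher in 16, not called in 4 and lower in 1, Slc25a46. Of the 10 with lower exon reads, intron reads were lower in 6, not called in 4 and higher in 0. Of the 8 whose exon reads were not called, intron reads were lower in 4 and higher in 1. Over all genes tested for intron reads 32.9% were higher and 32.9% lower, and on exon reads 6447 of 16681 genes were higher and 6781 lower. Intron calls among all genes with higher or lower exon reads were not counted. The member counts above therefore have no matching background and are not read as a trait of the family. Slc25a12 and Slc25a17 are members with higher exon reads (0.88 and 0.69) whose intron reads were not called (0.10, adjusted p = 0.47, and -0.01, adjusted p = 0.93). Slc25a20 and Slc25a4 had exon reads that were not called (0.07 and -0.03) and lower intron reads (-1.06, adjusted p = 3.8e-05, and -0.88, adjusted p = 0.0042).

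**Figure D5:**
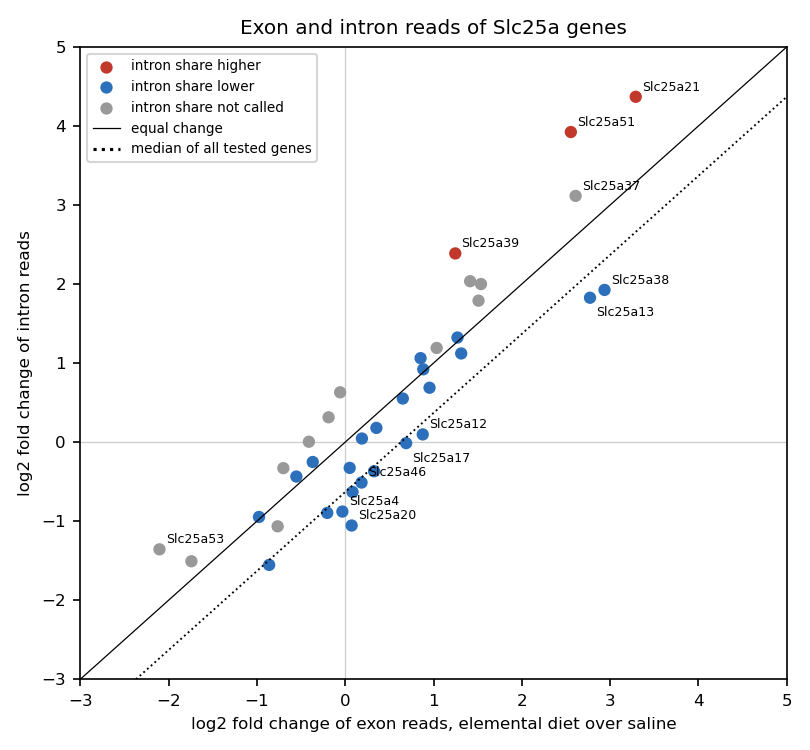
Log2 fold change, elemental diet over saline, of exon reads (x axis) and intron reads (y axis) for 38 of the 39 members tested for both, coloured by the call on the intron share. The solid line is equal change on these axes, each of which has its own scaling. The dotted line is drawn 0.63 below it, the median log2 change of intron over exon reads of all genes tested for intron share. That median comes from the fit of the intron share, so the dotted line is not the median of all genes on these axes. There the medians of all genes were -0.07 for exon reads and -0.02 for intron reads. Slc25a51 and Slc25a21 lie above the solid line, and Slc25a38, Slc25a12 and Slc25a20 well below it. Slc25a3, Slc25a5 and Slc25a28, whose intron share was called lower, also lie above the solid line. The side of this line therefore does not give the call on the intron share.

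Some members showed almost no spliced message. Slc25a47, which neighbours Slc25a29 on chromosome 12, had intron shares of 89.8% ± 4.57 with the diet and 88.6% ± 5.05 with saline and 6 reads across exon junctions in each group. Slc25a18 had 94.5% ± 3.11 and 87.3% ± 3.43, with 0 and 6 such reads. For these genes total gene reads largely count intron reads.

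Genes that work beside the carriers were taken from lists, and their counts are read against the background of 38.0% higher and 40.2% lower. Carriers of the same fold under other names were higher in 3 of 4 tested, with a median log2 fold change of 0.57. Ucp2 stood at 1197 ± 58.7 CPM (SD, n = 3) with the diet and 601 ± 17.2 with saline (log2 fold change 0.99, adjusted p = 2.1e-10). Mtch2, an insertase of the outer membrane, rose by 1.23 (adjusted p = 2e-11). Mtch1 was higher by 0.15 (adjusted p = 0.013) but lower with library totals (-0.16, adjusted p = 0.0032), so its direction depends on the scaling. Ucp3 was not called (-0.84, adjusted p = 0.075), though it was lower with library totals (-1.15, adjusted p = 0.021) and on exon reads (-2.07, adjusted p = 0.0012), and Ucp1 had no read. The machinery that brings carriers into the membrane was higher in 15 of 16 genes, with a median of 1.27. Timm8a1, a chaperone of the intermembrane space, rose by 2.32 (adjusted p = 3.8e-12), and the outer membrane translocase subunits Tomm22 and Tomm40 rose by 1.504 (adjusted p = 1.4e-11) and 1.49 (adjusted p = 1.6e-11). Agk, a subunit of the inner membrane translocase, was the gene not called (-0.23, adjusted p = 0.069). It was lower with library totals (-0.54, adjusted p = 0.00038), on unique reads (-0.44, adjusted p = 0.0025) and on intron reads (-1.26, adjusted p = 2.8e-07), but not called on exon reads (0.10, adjusted p = 0.48).

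Other mitochondrial transporters were higher in 17 of 20 and lower in 3, with a median of 0.75. The porphyrin-linked transporters Abcb6 and Abcb10 rose by 3.70 (adjusted p = 4.4e-14) and 3.58 (adjusted p = 5e-14), and the outer membrane channel Vdac1 by 1.78 (adjusted p = 3.1e-13). Enzymes that use or supply what the carriers move were higher in 15 of 23 tested, lower in 3 and not called in 5, with a median of 1.32. Cpox, an enzyme of heme synthesis, stood at 1090 ± 60.3 CPM with the diet and 55.3 ± 3.52 with saline (log2 fold change 4.30, adjusted p = 4.7e-15). Nadk2, the mitochondrial NAD kinase, rose by 2.80 (adjusted p = 3.1e-14) and Mthfd2, of mitochondrial folate metabolism, by 2.47 (adjusted p = 6.6e-14).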

How the data were processed

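RNA-seq data of 6 libraries, 3 per group, were grouped by the title and diet labels. Per the labels' protocols, libraries were made from poly(A) RNA and read as pairs of 75 bp. Per the file headers, the authors deposited whole-number read counts per gene, as total and unique gene, exon, intron and exon-exon reads. TPM values were computed by the authors, per the file headers. Builds named in the submitters' processing notes are GRCm38 and GRCh37, and coordinates are those of the files. Aligner, counting tool and strand use are not given in the sources used.

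Counts were analysed with edgeR 4.0.16 in R 4.3.3 (TMM scaling, filterByExpr, robust glmQLFit and glmQLFTest, two-sided), fitted on all genes and adjusted by Benjamini-Hochberg at 0.05. SE was taken from the log2 fold change and the F statistic, and the common biological coefficient of variation was 8.26%. Intron share was tested as the interaction of intron reads with diet on exon and intron counts, with a term for each library. DESeq2 1.42.0 and limma 3.58.1 served as alternatives, beside other scalings, filters, kinds of reads and left-out libraries. Unique exon reads, exon-exon reads and leaving out both libraries numbered 1 were added after the data were seen. The test was tried on simulated data with known changes.

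The members and lists were chosen with earlier results of these data known. Values per library are given for the most abundant member of each role by mean TPM. They are also given for the 6 largest rises and the 6 largest falls past the test. The 4 members with the smallest p for the intron share have them too. In each list of partner genes, the 3 genes with the smallest p are given by log2 fold change and adjusted p, and some by group means. Values of other members named beside these were chosen after they were seen. The values of 1 member are not reported here and are left out of the plots; it is included in the counts. Replicates were not duplicates: between them the median chi-square per gene, on library totals without TMM factors, was 2.96 to 5.97 times that of sampling noise. Without molecular identifiers, limits on a count of 0 cover counting error only.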

Additional observations from a re-analysis of the deposited data

How the results depend on the processing

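Of the 41 tested members, 40 kept direction and side of the threshold with RLE scaling and with DESeq2, 41 without hemoglobin and immunoglobulin genes in the TMM factors, 41 without a filter, 39 on unique reads and 41 without both libraries numbered 1. With library totals 17 members were lower, and 31 of 41 stayed the same with library totals as with upper quartile scaling. On exon reads 34 stayed the same, on exon-exon reads 30, and on intron reads 24, with 8 turning sign. Whether the same numbers in the 2 groups pair the libraries is not settled. Deviations of same-numbered libraries correlated at 0.15, -0.02 and 0.12, and those of other pairs across the groups at -0.16 to 0.07. Adipocyte marker reads were high in both libraries numbered 1. With the replicate block 21 members were higher and 11 lower, and the intron share was higher in 3 and lower in 23; with the block 1 gene of the import machinery was lower and 5 macrophage markers were. Leaving out 1 library gave 20 to 22 higher and 11 to 12 lower members, and an intron share higher in 1 to 3 and lower in 20 to 24. The intron share was higher in 1 member with limma on the logit share.

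Some members turned sign, and the cause was not tested. Most were not called on total gene reads with TMM scaling. Those called there were Slc25a46 and, among members that turned on intron reads, Slc25a15, Slc25a17 and Slc25a36. With library totals the members that turned were Slc25a33 (-0.19), Slc25a4 (-0.25), Slc25a47 (-0.16), Slc25a30 (-0.26) and Slc25a46 (-0.14). With upper quartile scaling the same genes turned (-0.15, -0.21, -0.12, -0.22 and -0.10). Slc25a4 and Slc25a30 were called lower under both scalings, and Slc25a46 with library totals. With RLE scaling and with DESeq2 Slc25a20 was at 0.0065 and 0.0063. On exon reads Slc25a4 was at -0.033, Slc25a20 at 0.072, Slc25a47 at -0.058 and Slc25a14 at 0.082, and on unique exon reads these were -0.064, 0.047, -0.094 and 0.052. On exon-exon reads Slc25a4 was at -0.20, Slc25a30 at -0.042 and Slc25a46 at -0.022. On intron reads Slc25a18 was at 0.41, Slc25a15 at -0.37, Slc25a4 at -0.88, Slc25a36 at 0.0041, Slc25a30 at -0.33, Slc25a17 at -0.014, Slc25a46 at -0.51 and Slc25a43 at 0.31. With a library, or both numbered 1, left out, Slc25a43 ran from -0.38 to 0.035, Slc25a18 from -0.50 to 0.0084, Slc25a20 from -0.11 to 0.086, Slc25a47 from -0.041 to 0.34 and Slc25a33 from -0.0040 to 0.20. For the intron share Slc25a10 was at -0.047 with limma, and with libraries left out Slc25a10 ran from -0.33 to 0.39, Slc25a47 from -0.30 to 0.62, Slc25a43 from -1.03 to 0.33 and Slc25a35 from -0.52 to 0.057.

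Of the lists, carriers under other names had 1 gene higher on intron reads, 2 lower with library totals or upper quartile scaling, 1 lower on exon, intron or unique exon reads, and 0 to 1 lower with 1 library left out. Other mitochondrial transporters had 8 higher and 1 lower on intron reads. The import machinery had 1 gene lower with upper quartile scaling, library totals, no filter, a minimum of 1 CPM, unique reads or intron reads, and 0 to 1 with 1 library left out. Partner enzymes had 8 lower with library totals or upper quartile scaling, and 2 to 4 with 1 library left out. On exon reads the log2 ratio changes were 3.16 for Slc25a37 to Slc25a28, 1.90 for Slc25a13 to Slc25a12, 1.16 for Slc25a24 to Slc25a25, 0.61 for Slc25a33 to Slc25a36 and 1.51 for Slc25a22 to Slc25a18, a pair that ran from -0.06 to 0.35 with 1 library left out. The 6 members that were not tested had too few reads at this depth, and low depth and absent expression were not told apart.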
